A study of Homo sapiens with 6 samples.

Results

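TRIM genes encode the tripartite motif proteins, a family of ubiquitin ligases. Of these genes, 54 were among the 30051 gene rows of a count table from MDA-MB-231 cells. The cells were treated with the histone deacetylase inhibitor panobinostat or with its solvent. Members were taken by symbol: TRIM followed by digits and at most 1 letter, or TRIML1 or TRIML2. Of 55 identifiers that carried such a symbol, 1 was left out, because the deposited symbol TRIM74 stood on an identifier annotated as the pseudogene STAG3L3 in GENCODE 29. TRIM16L was kept, since GENCODE 29 does not class it as a pseudogene, but RefSeq lists it as a transcribed pseudogene. The symbols chose the members, and no measured value did.

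MDA-MB-231 is an established human cell line, triple-negative breast cancer in origin and mesenchymal, claudin-low in character. The panobinostat group held 3 libraries, replicates 1, 2 and 4, of cells given 50 nM panobinostat for 24 h. The DMSO group held 3 libraries, replicates 1, 2 and 3, of cells given DMSO for the same time. All cells came from this 1 line, grown in DMEM/F-12 with serum. Nothing in the labels says whether libraries of 1 group came from separate cultures, so p-values measure the spread between these libraries, which may be technical. The comparison asks which of these transcripts changed under the inhibitor.

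A TRIM protein typically starts with a RING finger, which binds the ubiquitin-conjugating enzyme, followed by B-boxes and a coiled coil through which the proteins pair. The C-terminal domain differs between members and binds the target. Many members with a PRY-SPRY domain act in antiviral defence, and several of them are induced by interferon. Members with a PHD finger and a bromodomain act on chromatin, NHL and COS members are best known from neurons, muscle and microtubules, and some members lack the RING altogether.

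Library totals ran from 5389638 to 15106148 counts in panobinostat and from 6514568 to 11996519 counts in DMSO. Values below are CPM, counts scaled to 1000000 per library, on library totals scaled with edgeR's TMM factors, as mean ± SD with n = 3 per group, and each log2 fold change is panobinostat over DMSO ± SE. Calls are those of edgeR's quasi-likelihood test at a Benjamini-Hochberg adjusted p under 0.05 over 13341 tested genes. Panobinostat replicate 4 lay between the treatments: along the axis of largest variance (principal component 1, 88.4%) it stood at −15.3, against −59.3 and −60 in panobinostat replicates 1 and 2 and 44.3 to 45.5 in the DMSO libraries. The counts over members and lists are therefore also given without it where they differ. Mesenchymal markers of the labelled line ran from high to low. CD44 averaged 810 CPM in panobinostat and 761 CPM in DMSO, AXL 915 and 1161 CPM, and FN1 303 and 246 CPM. ZEB1 averaged 95.8 CPM in panobinostat and 180 CPM in DMSO, and S100A4 9.44 and 8.53 CPM. VIM, a mesenchymal filament, averaged 2870 CPM in panobinostat and 2567 CPM in DMSO, and CDH1, the epithelial cadherin, had 0 counts in panobinostat and 1 in DMSO. Other epithelial and luminal markers were low or near absent. EPCAM averaged 11.2 CPM in panobinostat and 18.5 CPM in DMSO, and CLDN7 15.6 and 15.5 CPM. GATA3 averaged 5.36 and 11.9 CPM, and CLDN4 4.05 and 1.24 CPM, in the same order. CLDN4 was called higher, but it passed the filter on low counts through the panobinostat libraries. CLDN3 had 7 counts in panobinostat and 1 in DMSO, ESR1 13 and 5, and PGR 19 and 2. SPARC was low for a mesenchymal marker, with 35 counts in each group. The leukocyte markers summed to 2.11 to 3.29 CPM in panobinostat and 0.427 to 0.847 CPM in DMSO, of which CD14 averaged 2.46 CPM and 0.523 CPM, while PTPRC had 2 and 0 counts. The skeletal muscle markers summed to no more than 0.903 CPM in panobinostat and 0.31 CPM in DMSO, and the neuron markers to no more than 1.1 CPM in panobinostat and 0.931 CPM in DMSO. Their part in the results below was not tested.

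Promoters of 5 members are shown because these genes are described below: TRIM62 and TRIM3 were among the strongest rises, TRIM65 and TRIM56 among the strongest falls, and TRIM21, not called, holds overlapping matches to an interferon response element. Each window runs from 250 bases before to 50 bases after the transcription start in RefSeq on GRCh38.p14, read 5′ to 3′ along the gene. Where a gene has several windows, as TRIM62 does, the most upstream is printed. Capitals mark matches, on either strand, to any of 7 motifs: the GC box (GGGCGG), the CCAAT box (spelled as its name), the TATA box (TATAAA), the interferon response element (GAAA, any 2 bases, GAAA), the E-box (CACGTG), the AP-1 site (TGANTCA) and the CRE (TGACGTCA). Matches may overlap.
TRIM62, chr1:33181994-33182293, minus strand: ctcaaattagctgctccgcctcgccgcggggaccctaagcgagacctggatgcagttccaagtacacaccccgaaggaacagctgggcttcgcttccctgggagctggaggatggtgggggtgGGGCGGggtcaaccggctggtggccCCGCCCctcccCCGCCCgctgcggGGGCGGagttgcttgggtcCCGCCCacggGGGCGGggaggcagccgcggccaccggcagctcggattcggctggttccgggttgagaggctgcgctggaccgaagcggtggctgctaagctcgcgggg
TRIM3, chr11:6474410-6474709, minus strand: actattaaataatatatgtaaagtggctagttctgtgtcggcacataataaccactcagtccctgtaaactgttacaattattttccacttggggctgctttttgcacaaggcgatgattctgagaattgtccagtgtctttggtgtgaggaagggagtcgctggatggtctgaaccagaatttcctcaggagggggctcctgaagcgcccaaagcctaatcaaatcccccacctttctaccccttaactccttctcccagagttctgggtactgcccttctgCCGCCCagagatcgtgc
TRIM65, chr17:75896902-75897201, minus strand: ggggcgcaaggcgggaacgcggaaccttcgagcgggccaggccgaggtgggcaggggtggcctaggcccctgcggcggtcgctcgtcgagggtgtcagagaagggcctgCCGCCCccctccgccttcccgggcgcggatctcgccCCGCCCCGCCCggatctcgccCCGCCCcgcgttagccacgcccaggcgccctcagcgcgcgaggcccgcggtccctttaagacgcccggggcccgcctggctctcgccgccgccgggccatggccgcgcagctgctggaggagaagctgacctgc
TRIM56, chr7:101085231-101085530, plus strand: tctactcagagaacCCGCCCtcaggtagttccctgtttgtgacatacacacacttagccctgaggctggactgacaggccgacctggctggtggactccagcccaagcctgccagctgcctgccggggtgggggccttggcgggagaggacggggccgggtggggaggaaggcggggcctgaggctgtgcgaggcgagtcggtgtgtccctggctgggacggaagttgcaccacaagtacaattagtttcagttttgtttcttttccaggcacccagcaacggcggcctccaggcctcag
TRIM21, chr11:4393653-4393952, minus strand: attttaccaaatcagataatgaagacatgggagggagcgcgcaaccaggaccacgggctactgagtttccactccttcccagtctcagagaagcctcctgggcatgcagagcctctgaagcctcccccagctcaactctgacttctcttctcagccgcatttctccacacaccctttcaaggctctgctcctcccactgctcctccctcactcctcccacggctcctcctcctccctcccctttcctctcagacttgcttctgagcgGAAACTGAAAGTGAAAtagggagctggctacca

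The GC box was present on both sides of the response: 6 copies in TRIM62 and 1 in TRIM3, which rose, against 4 in TRIM65 and 1 in TRIM56, which fell. Over the members, 41 had a RefSeq window, and in the most upstream one a GC box stood in 7 of 12 members called higher, 6 of 6 called lower, 6 of 9 not called and 3 of 14 not tested. Among all 35116 windows of this length 44.95% held a GC box, beside 51.72% of the 58 windows of the members. The interferon response element stood in 9 of the 58 windows of the members (15.52%), against 3.57% of all windows, and in TRIM21 it occurs 2 times, overlapping. The other members with a match were TRIM2, TRIM5, TRIM14, TRIM16, TRIM26, TRIM34, TRIM44 and TRIM69. Of these 9, TRIM2 rose, TRIM44 fell, TRIM5, TRIM14, TRIM16 and TRIM21 were not called, and TRIM26, TRIM34 and TRIM69 were too low to test. A motif match describes the letters and not a bound site.

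Of the 54 members 37 passed the filter on low counts and were tested. Of these, 14 rose, 10 fell and 13 were not called. Among all tested genes 58.9% were called, 30.2% higher and 28.6% lower, so the members' shares of 37.8% higher and 27% lower were near the background. At least 2-fold changes were found in 4 members that rose, against 10.9% of all tested genes, and in 1 that fell, against 4.66%. The median log2 fold change of the tested members was −0.05, beside 0.00 over all tested genes, and the median size regardless of sign was 0.52 beside 0.42. Panobinostat and DMSO values did not overlap in 24 tested members, and they did not overlap in 69% of all tested genes. The filter can pass a low member through the group where it is high, so these counts describe only the tested members. In bulk RNA, fewer expressing cells and less RNA per cell cannot be told apart.

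**Figure D1:**
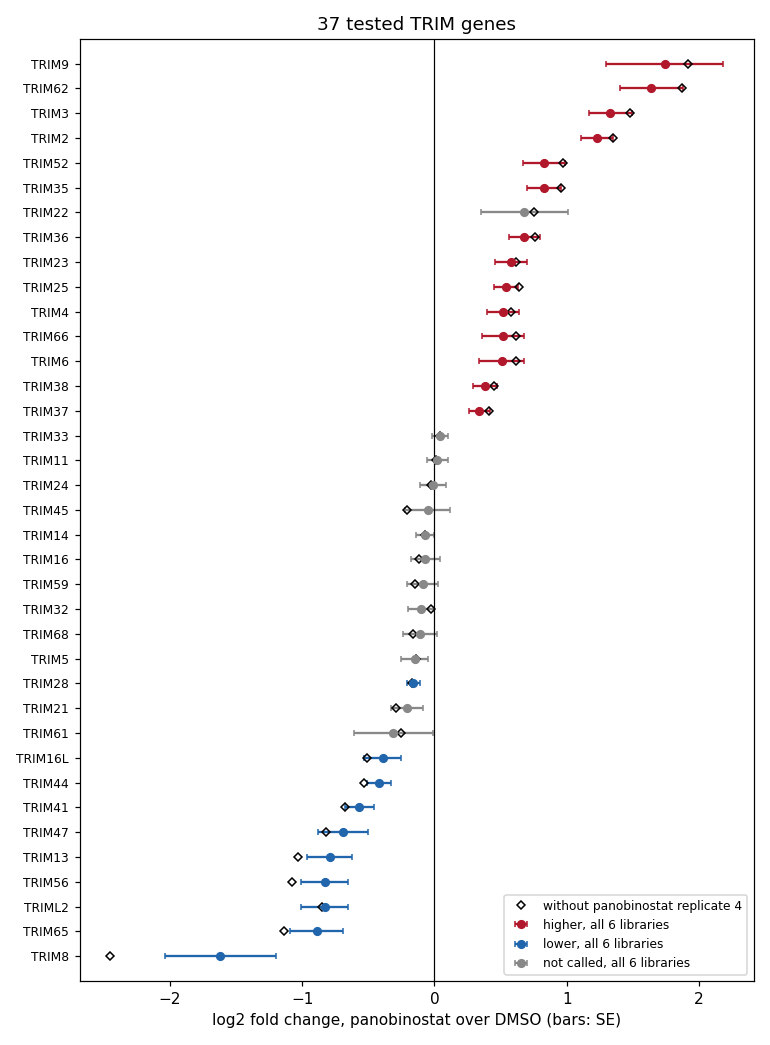
Log2 fold change of each tested TRIM gene, panobinostat over DMSO, with its SE as a bar; filled points are the fit of all 6 libraries, coloured by call, and open diamonds the fit without panobinostat replicate 4. The values run from 1.74 for TRIM9 to −1.62 for TRIM8, with 13 members not called, TRIM22 among them at 0.68.

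The 4 members that at least doubled were TRIM9, TRIM62, TRIM3 and TRIM2. TRIM62, also known as DEAR1, is a regulator of polarity in breast ductal epithelium and lies on chromosome 1 from 33145399 to 33182043. It had 25.2, 23.3 and 13.7 CPM in panobinostat replicates 1, 2 and 4, against 6.36, 7.4 and 6.52 CPM in DMSO replicates 1, 2 and 3. All panobinostat libraries lay above all DMSO libraries, replicate 4 the least so. The log2 fold change was 1.64 ± 0.24 (edgeR adjusted p = 0.00159), and 1.87 without replicate 4.

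TRIM3 and TRIM2 are NHL-domain ligases known from neurons, where TRIM2 ubiquitinates the light neurofilament chain and TRIM3 acts at synapses. TRIM3 had 55.4, 55.1 and 37.9 CPM in panobinostat, against 19.5, 20.9 and 18.9 CPM in DMSO (1.33 ± 0.16, edgeR adjusted p = 0.000882). TRIM2 had 75.4, 73 and 56.3 CPM in panobinostat, against 30, 27.9 and 29.6 CPM in DMSO (1.23 ± 0.12, edgeR adjusted p = 0.000638). In both genes the panobinostat libraries stood well clear of the DMSO libraries. TRIM32, the NHL member mutated in a limb-girdle muscular dystrophy, had 43.4, 36.2 and 36.6 CPM in panobinostat, against 43.8, 41.1 and 40.2 CPM in DMSO, and was not called (−0.10 ± 0.10). TRIM71, the stem cell NHL member, had 1 count in all libraries together.

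TRIM9, a ligase of neuronal axon branching, was low in both groups. It had 4.08, 3.68 and 2.41 CPM in panobinostat, against 0.932, 1.85 and 0.31 CPM in DMSO (1.74 ± 0.44, edgeR adjusted p = 0.011). The groups did not overlap, but DMSO replicate 3 rests on 2 counts, and leaving out either replicate 1 library ended the call (edgeR adjusted p = 0.0546 without that of panobinostat and 0.0572 without that of DMSO; its alternatives ran from 1.93e-06 to 0.0572). TRIM36, a microtubule-associated relative with the same COS, FN3 and SPRY domains, had 27.6, 27 and 22.7 CPM in panobinostat, against 15.8, 15.9 and 16.9 CPM in DMSO (0.68 ± 0.12, edgeR adjusted p = 0.00284). TRIM46, which organises microtubules at the axon initial segment, was too low to test, with 16 counts in panobinostat and 4 in DMSO, a ratio of 3.78 after scaling by library totals (95% counting interval 1.22 to 15.5).

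MID1 and MID2 share this domain class under other symbols, and both bind microtubules. MID1, the gene of Opitz syndrome, had 56.1, 57.5 and 46.1 CPM in panobinostat, against 27.9, 24.1 and 25.1 CPM in DMSO (1.05 ± 0.12, edgeR adjusted p = 0.000725). MID2 had 2.56, 4.04 and 1.5 CPM in panobinostat, against 0.847, 0.712 and 0.155 CPM in DMSO (2.05 ± 0.51, edgeR adjusted p = 0.00959). In both genes the groups did not overlap. TRIM9 and MID2 were so low in DMSO that they passed the filter on low counts through the panobinostat libraries, so a count over the tested genes of this class, or over the neuronal and microtubule list that TRIM9 belongs to, is not read as a result.

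The PRY-SPRY members, TRIM62 included, moved both ways: 6 rose, 5 fell and 7 of the 18 tested were not called, with a median of −0.07, beside 30.2% higher and 28.6% lower among all tested genes. The fit without panobinostat replicate 4 gave 6 rises and 6 falls, beside 37.7% higher and 37.2% lower among all tested genes. TRIM35, which has been linked to pyruvate kinase M2 and macrophage activation, had 50.2, 43.4 and 36.7 CPM in panobinostat, against 24.7, 24.1 and 25 CPM in DMSO (0.83 ± 0.13, edgeR adjusted p = 0.00186). TRIM25, an oestrogen-responsive ligase that attaches ubiquitin chains to the RNA sensor RIG-I, had 331, 312 and 257 CPM in panobinostat, against 208, 205 and 206 CPM in DMSO (0.54 ± 0.09, edgeR adjusted p = 0.00292). The DMSO libraries of TRIM25 were close to each other and every panobinostat library lay above them. TRIM4 (0.52 ± 0.12), which also modifies RIG-I, TRIM38 (0.38 ± 0.09), a brake on TAB2 and TAB3 signalling, and TRIM6 (0.51 ± 0.17), a partner of the kinase encoded by IKBKE, rose as well. TRIM6 had 20.2, 21.7 and 15.8 CPM in panobinostat, against 13.1, 16.1 and 11.3 CPM in DMSO. Its groups overlapped, and its call was lost without DMSO replicate 1 or 3 or panobinostat replicate 1 or 2 (edgeR adjusted p = 0.0993 to 0.112) and under DESeq2 (Wald test, adjusted p = 0.0544), its alternatives ranging from 1.17e-05 to 0.112.

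TRIM65, which ubiquitinates the RNA sensor MDA5, fell in the same class. It had 30.1, 25.5 and 47.4 CPM in panobinostat, against 62.4, 62.9 and 65 CPM in DMSO (−0.89 ± 0.20, edgeR adjusted p = 0.0065), and the change was −1.14 without panobinostat replicate 4. TRIML2 had 6.05, 4.6 and 6.32 CPM in panobinostat, against 9.32, 9.54 and 12.1 CPM in DMSO (−0.83 ± 0.18, edgeR adjusted p = 0.0063). Replicates 1 and 4 of panobinostat were close here, and all panobinostat libraries lay below DMSO. TRIM41 (−0.57 ± 0.11), TRIM47 (−0.69 ± 0.19) and TRIM16L (−0.39 ± 0.14) also fell. TRIM47 had 5.59, 4.23 and 6.92 CPM in panobinostat, against 9.32, 9.54 and 8.38 CPM in DMSO (edgeR adjusted p = 0.0149), and the call did not hold when DMSO replicate 1 or 2 or panobinostat replicate 1 was left out (edgeR adjusted p = 0.0508 to 0.0586, in a range of 8.98e-06 to 0.0586). TRIM16L had 11.1, 11.4 and 14 CPM in panobinostat, against 16.8, 15.1 and 15.7 CPM in DMSO (edgeR adjusted p = 0.0352), and its call was lost without any 1 library except panobinostat replicate 4 and with the DESeq2 Wald test (adjusted p = 0.0706 to 0.131, in a range of 0.000207 to 0.131). TRIM16L, one of the 10 falls, is a near copy of TRIM16, a ligase of damaged lysosomes, which was not called (−0.07 ± 0.11). Reads that may be shared by the 2 genes make both values uncertain, and such sharing was not tested.

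The interferon-induced restriction factors of this class were not called. TRIM5, which recognises retroviral capsids, had 20, 18.9 and 19.6 CPM in panobinostat, against 21.9, 20.1 and 23 CPM in DMSO (−0.15 ± 0.10). TRIM21, the cytosolic antibody receptor whose promoter is shown above, had 20.8, 19.9 and 23.6 CPM in panobinostat, against 27.1, 22.5 and 24.7 CPM in DMSO (−0.21 ± 0.12, edgeR adjusted p = 0.153). It was called lower without panobinostat replicate 4 (−0.29, edgeR adjusted p = 0.00815, in a range of 0.00407 to 0.442). TRIM22 was low, at 2.43, 1.47 and 1.96 CPM in panobinostat against 1.02, 1.14 and 1.86 CPM in DMSO, with overlapping groups (0.68 ± 0.33, edgeR adjusted p = 0.109). It passed the filter on low counts mainly through the panobinostat libraries. TRIM14, a mitochondrial adaptor without a RING, was at 58.3 ± 1.27 CPM in panobinostat and 61.3 ± 2.6 CPM in DMSO (−0.07 ± 0.07). TRIM11 (0.02 ± 0.08) and TRIM68 (−0.11 ± 0.13), a coactivator of the androgen receptor, were not called either.

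The largest fall of the family was in TRIM8, which has no known C-terminal domain and is known to activate TAK1 and NF-κB after tumour necrosis factor and to stabilise p53. TRIM8, on chromosome 10 from 102644479 to 102658319, had 61.7, 71.9 and 216 CPM in panobinostat replicates 1, 2 and 4, against 348, 379 and 338 CPM in DMSO. Every panobinostat library lay below every DMSO library, with replicate 4 much nearer to DMSO than the other two. The log2 fold change was −1.62 ± 0.42 (edgeR adjusted p = 0.0121), and −2.45 without replicate 4. Testing every gene with a count, unfiltered, ended its call (edgeR adjusted p = 0.145, the highest of its alternatives). TRIM8 made up 5.08 ± 3.62% of the summed CPM of the 54 members in panobinostat and 14.4 ± 0.687% in DMSO.

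**Figure D2:**
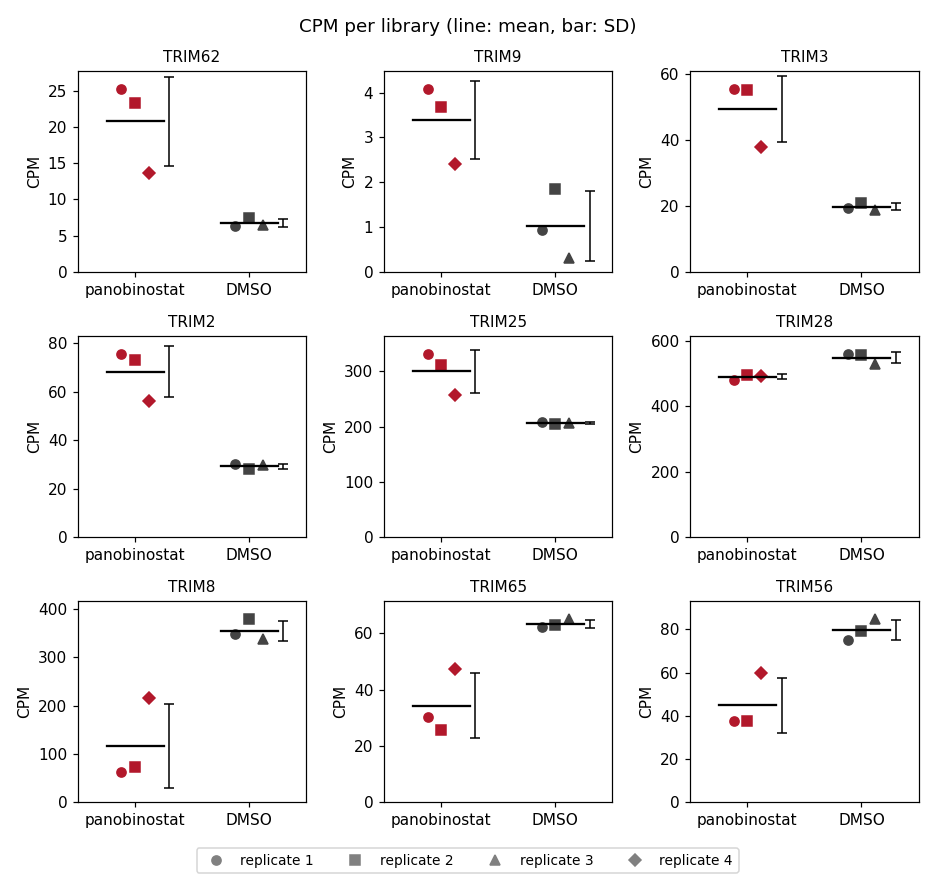
CPM of 9 TRIM genes in each library, panobinostat left of DMSO in each panel; the marker shape gives the replicate number, the line the mean and the bar the SD of 3 libraries. Panobinostat replicate 4 (diamond) is the nearest to DMSO in 8 of the panels, and in TRIM28 the panobinostat libraries span 482 to 497 CPM.

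TRIM56, which acts with STING and with the TLR3 pathway, had 37.5, 37.7 and 59.7 CPM in panobinostat, against 75.1, 79.3 and 84.7 CPM in DMSO (−0.83 ± 0.18, edgeR adjusted p = 0.00538), and −1.08 without replicate 4. TRIM44, a RING-less member that protects other proteins from ubiquitin, had 228, 240 and 285 CPM in panobinostat, against 326, 336 and 342 CPM in DMSO (−0.42 ± 0.09, edgeR adjusted p = 0.00526). Both had groups that did not overlap. TRIM52, a short member with an unusually long RING loop, went the other way in the same class, with 24.8, 27 and 18.1 CPM in panobinostat against 12.8, 12.8 and 13.7 CPM in DMSO (0.83 ± 0.16, edgeR adjusted p = 0.00406). TRIM61 was not called (−0.31 ± 0.30). Of 5 tested members without a known C-terminal domain, 1 rose, 3 fell and 1 was not called, with a median of −0.42 beside 0.00 over all tested genes, of which 30.2% were called higher and 28.6% lower.

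TRIM13, anchored in the endoplasmic reticulum membrane, where it acts in protein degradation and autophagy, had 12, 14.2 and 18.8 CPM in panobinostat, against 28.2, 24.2 and 23.9 CPM in DMSO (−0.79 ± 0.17, edgeR adjusted p = 0.0063). The other membrane-anchored member, TRIM59, was not called (−0.09 ± 0.12). TRIM23, whose ARF-like GTPase domain acts in autophagy, had 42.7, 47.6 and 36.9 CPM in panobinostat, against 30.9, 28.2 and 25.6 CPM in DMSO (0.58 ± 0.12, edgeR adjusted p = 0.00562). TRIM37, a centriole and peroxisome ligase amplified in some breast cancers, had 120, 114 and 103 CPM in panobinostat, against 89.7, 86 and 91.4 CPM in DMSO (0.34 ± 0.08, edgeR adjusted p = 0.00783). TRIM45, the filamin-domain member, was not called (−0.05 ± 0.17). Of 5 tested members in a list of organelle and autophagy roles, 2 rose, 1 fell and 2 were not called, beside 58.9% of all tested genes called.

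**Figure D3:**
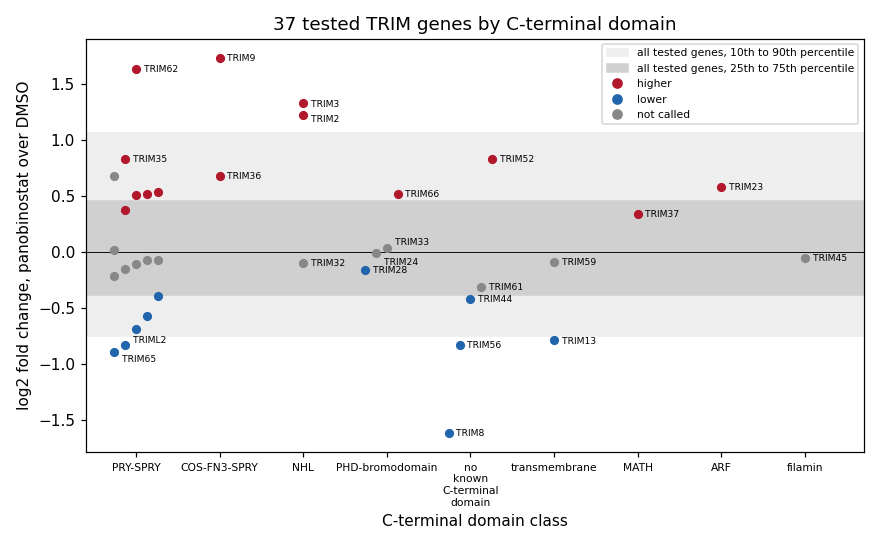
Log2 fold change of the 37 tested TRIM genes by C-terminal domain class, coloured by call; the grey bands hold the 10th to 90th percentile (−0.75 to 1.07) and the 25th to 75th percentile (−0.38 to 0.46) of all tested genes. TRIM62, TRIM9, TRIM3 and TRIM2 lie above the wider band, and TRIM8, TRIM65, TRIM56, TRIML2 and TRIM13 below it.

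Of the 4 members of the PHD-bromodomain class TRIM66 rose, TRIM28 fell, and TRIM24 and TRIM33 were not called, beside 30.2% higher and 28.6% lower among all tested genes. TRIM28, also known as KAP1, is the corepressor that KRAB zinc finger proteins bring to DNA, and it was the most abundant member per length, at 122 ± 1.93 RPKM (CPM per kilobase of exon) in panobinostat and 136 ± 4.24 RPKM in DMSO. It had 482, 497 and 493 CPM in panobinostat, against 560, 557 and 529 CPM in DMSO (−0.16 ± 0.05, edgeR adjusted p = 0.0272). The groups did not overlap, but only panobinostat replicate 4 could be left out with the call kept (edgeR adjusted p = 0.0513 to 0.107 without any other library), and it was lost with library size only (0.0537), in a range of 2.39e-12 to 0.107. TRIM24, a reader of acetylated histone H3, had 40.6, 43.4 and 43.3 CPM in panobinostat, against 41.2, 46.8 and 39.6 CPM in DMSO (−0.01 ± 0.10, edgeR adjusted p = 0.962). TRIM33, a ligase and partner of SMAD proteins, had 108, 106 and 108 CPM in panobinostat, against 103, 107 and 103 CPM in DMSO (0.04 ± 0.06, edgeR adjusted p = 0.608). Values of both genes overlapped between the groups.

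TRIM66, a relative that binds heterochromatin protein 1, was far lower, at 1.09 RPKM in panobinostat and 0.759 RPKM in DMSO. It had 14.3, 13.4 and 10.7 CPM in panobinostat, against 10.1, 7.97 and 8.69 CPM in DMSO (0.52 ± 0.16, edgeR adjusted p = 0.0259). It was not called without DMSO replicate 2 or 3 or panobinostat replicate 1 or 2 (edgeR adjusted p = 0.072 to 0.118) and under DESeq2 (Wald test, adjusted p = 0.073), in a range of 8.79e-05 to 0.118. TRIM66 overlaps RPL27A, an abundant ribosomal protein gene, and no source used here gives the strand setting of the counting. Whether reads of RPL27A entered the TRIM66 counts was not tested.

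Partners of TRIM28 in silencing moved in both directions: 2 of 12 rose, 7 fell and 3 were not called, with a median of −0.38, beside 30.2% higher and 28.6% lower among all tested genes. Without panobinostat replicate 4, 2 rose and 8 fell, beside 37.7% and 37.2%. Leaving out DMSO replicate 2 left 5 falls, and leaving out DMSO replicate 3 or panobinostat replicate 1 or 2 left 6. In those fits 2660 to 2790 of all 13341 tested genes were called lower. TASOR, a subunit of the HUSH silencing complex, had 41.5, 43 and 67.7 CPM in panobinostat, against 100, 105 and 97.7 CPM in DMSO (−1 ± 0.17, edgeR adjusted p = 0.00297). SETDB1, the histone H3 lysine 9 methyltransferase that TRIM28 recruits, had 18, 18.6 and 24.4 CPM in panobinostat, against 35.3, 32.7 and 36 CPM in DMSO (−0.78 ± 0.13, edgeR adjusted p = 0.0028). CBX5, which encodes heterochromatin protein 1 alpha (−0.78 ± 0.18), and ATF7IP, the SETDB1 cofactor (−0.73 ± 0.16), fell too. MPHOSPH8 (0.63 ± 0.11) and PPHLN1 (0.22 ± 0.08), the other HUSH subunits, rose. Leaving out any library but panobinostat replicate 4 ended the call of PPHLN1 (edgeR adjusted p = 0.0711 to 0.145; all its alternatives, 7.89e-06 to 0.288). All 3 SMAD genes bound by TRIM33 fell, SMAD4 by 0.53, SMAD3 by 0.41 and SMAD2 by 0.33 on the log2 scale, beside 28.6% of all tested genes called lower, and leaving out DMSO replicate 2 ended the call of SMAD2 (edgeR adjusted p = 0.0508, in a range of 4.30e-11 to 0.0508).

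In the list of antiviral and innate sensing roles, 13 of 15 members had a row and 11 were tested: 3 rose, 3 fell and 5 were not called, with a median of −0.10, beside 30.2% higher and 28.6% lower among all tested genes. Leaving out panobinostat replicate 4 gave 3 rises and 4 falls, beside 37.7% higher and 37.2% lower among all tested genes. The sensing pathway that these ligases modify had 18 tested genes, of which 4 rose, 8 fell and 6 were not called, beside 30.2% and 28.6% of all tested genes, with a median of −0.36. Without panobinostat replicate 4, 5 rose and 10 fell, beside 37.7% and 37.2% of all tested genes. CGAS, the cytosolic DNA sensor, had 16.1, 18.2 and 52.4 CPM in panobinostat, against 76.6, 83.5 and 79 CPM in DMSO (−1.50 ± 0.39, edgeR adjusted p = 0.0121), and −2.25 without replicate 4. Testing unfiltered genes ended the call of CGAS (edgeR adjusted p = 0.141, in a range of 1.07e-148 to 0.141). STING1, its downstream adaptor (−0.98 ± 0.23), TLR3, the endosomal RNA receptor (−1.06 ± 0.19), and RNF135, a ligase of RIG-I related to TRIM25 (−1.11 ± 0.19), fell. RNF135 had 15.1, 15.6 and 25.4 CPM in panobinostat, against 40.3, 37.1 and 42.5 CPM in DMSO, opposite in direction to TRIM25. RIGI, the gene of RIG-I and named here after its values were seen, fell by 0.47 on the log2 scale (edgeR adjusted p = 0.0123), and leaving out DMSO replicate 1 ended that call (edgeR adjusted p = 0.052, in a range of 2.86e-22 to 0.052). ISG15, a ubiquitin-like protein induced by interferon, rose the most in this list, with 47, 49.1 and 32.7 CPM in panobinostat against 11.8, 12 and 14.9 CPM in DMSO (1.75 ± 0.18, edgeR adjusted p = 0.000655). The TAK1 arm moved both ways: TAB3 (0.69 ± 0.12), TRAF6 (0.30 ± 0.11) and MAP3K7 (0.19 ± 0.07) rose, and TAB2 fell (−0.47 ± 0.11, edgeR adjusted p = 0.00834). The TRAF6 call held only when panobinostat replicate 4 was the library left out, and the MAP3K7 call only for panobinostat replicate 2 or 4 (otherwise edgeR adjusted p = 0.0759 to 0.15, in a range of 0.00115 to 0.377 over their alternatives).

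Among the interferon receptor and STAT genes 11 were tested, of which 6 rose, 2 fell and 3 were not called, with a median of 0.31, beside 30.2% higher and 28.6% lower among all tested genes. Without panobinostat replicate 4, 7 rose and 3 fell, beside 37.7% higher and 37.2% lower among all tested genes. Leaving out DMSO replicate 1 or 3 or panobinostat replicate 1 or 2 left 3 rises, with IFNGR1 (0.42 ± 0.15), TYK2 (0.20 ± 0.07) and IL10RB no longer called, and leaving out DMSO replicate 2 or 3 or panobinostat replicate 1 left 1 fall. STAT2 had 101, 97.8 and 68.5 CPM in panobinostat, against 44.4, 44.1 and 44.4 CPM in DMSO (1.01 ± 0.14, edgeR adjusted p = 0.00149). The kinase gene JAK1 (0.54 ± 0.11) and IL10RB, a receptor chain (0.50 ± 0.14), rose, while IFNAR1, a chain of the type I interferon receptor (−0.82 ± 0.15), and the factor IRF1 (−0.32 ± 0.09) fell. IL10RB and IRF1 lost their calls without some libraries (edgeR adjusted p = 0.0548 to 0.0697, in a range of 1.23e-07 to 0.0697 over their alternatives). IRF9, a partner of STAT2, was too low to test, with 19 counts in panobinostat and 40 in DMSO. The interferon-induced TRIM5, TRIM21 and TRIM22 were not called beside these rises, while TRIM25 and TRIM38 were called higher. Under the replicate block TRIM22 was called higher and TRIM21 lower. That fit compares the treatments within replicates 1 and 2 only, so it is close to leaving out panobinostat replicate 4 and is not separate support. TRIM21 was also called lower under quality weights and without panobinostat replicate 4.

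Of 11 tested ubiquitin E1 and E2 enzymes that TRIM proteins use, 4 rose, 2 fell and 5 were not called, beside 30.2% higher and 28.6% lower among all tested genes. Without panobinostat replicate 4 there were 6 falls, beside 37.2% of all tested genes, and without any other library 1. UBE2D1 (0.62 ± 0.12), UBE2W (0.60 ± 0.10), UBE2V1 (0.56 ± 0.20) and UBE2L6 (0.47 ± 0.10), the conjugating enzyme of ISG15, rose, and UBE2D3 (−0.52 ± 0.09) and UBE2V2 (−0.36 ± 0.11) fell. The calls of UBE2V1 and UBE2V2 held only when panobinostat replicate 4 was the library left out (otherwise edgeR adjusted p = 0.0501 to 0.189, in a range of 1.49e-15 to 0.194 over their alternatives). Of 5 tested MAGE and deubiquitinase partners 0 rose and 1 fell at an edgeR adjusted p under 0.05: USP7, a deubiquitinase found in MAGE complexes (−0.56 ± 0.10, edgeR adjusted p = 0.00325), beside 30.2% higher and 28.6% lower among all tested genes. Leaving out panobinostat replicate 4 gave 2 falls, beside 37.2% of all tested genes called lower. MAGEC2, a cancer-testis partner of TRIM28, was at 3.4 ± 1.12 CPM in panobinostat and 4.42 ± 0.625 CPM in DMSO and was not called (−0.49 ± 0.29, edgeR adjusted p = 0.181), but it was called lower without panobinostat replicate 4 (−0.79), under quality weights and under the replicate block (its alternatives ranged from 0.00319 to 0.633).

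Together the 54 members summed to 2267 ± 56.8 CPM in panobinostat and 2472 ± 28.2 CPM in DMSO. TRIM28, TRIM44, TRIM8 and TRIM25 made up 51 ± 2.27% of this sum in panobinostat and 58.4 ± 0.624% in DMSO. The share of TRIM25 was 13.3 ± 2% in panobinostat and 8.34 ± 0.134% in DMSO. Per length, TRIM8 stood at 12.2 ± 9.02 RPKM in panobinostat, where replicate 4 was far above the other libraries, and at 37.2 ± 2.21 RPKM in DMSO, second there to TRIM28. Lengths are the joined exons of GENCODE 29, and the authors' annotation may differ.

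Every one of the 24 called members lay nearer to DMSO in panobinostat replicate 4 than in the mean of replicates 1 and 2, and all 24 moved in the same direction there. The calls used replicate 4, so the shared direction was largely set by the choice of called members. Replicate 4 also lay nearer to DMSO along principal component 1, and the share of all tested genes that did so was not counted. Over the 14 members that rose, log2 ratios to DMSO had medians of 0.72, 0.73 and 0.42 in panobinostat replicates 1, 2 and 4, and −0.69, −0.92 and −0.39 over the 10 that fell. Relative to the mean of replicates 1 and 2, the log2 ratio of replicate 4 was smallest in TRIM8, at 0.3, and largest in TRIM28, at 0.94, with a median of 0.51. Without panobinostat replicate 4, 14 members rose and 11 fell, beside 74.9% of all tested genes called, 37.7% higher and 37.2% lower, and none of the 24 calls was lost or turned. At least 2-fold were 4 rises and 4 falls, beside 12.7% and 8.94% of all tested genes. The falls of at least 2-fold were then TRIM8, TRIM65, TRIM56 and TRIM13. TRIM69, too low to test, had 1, 0 and 15 counts in panobinostat replicates 1, 2 and 4, against 2, 1 and 3 counts in DMSO, so its ratio of 2.52 rests on replicate 4.

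**Figure D4:**
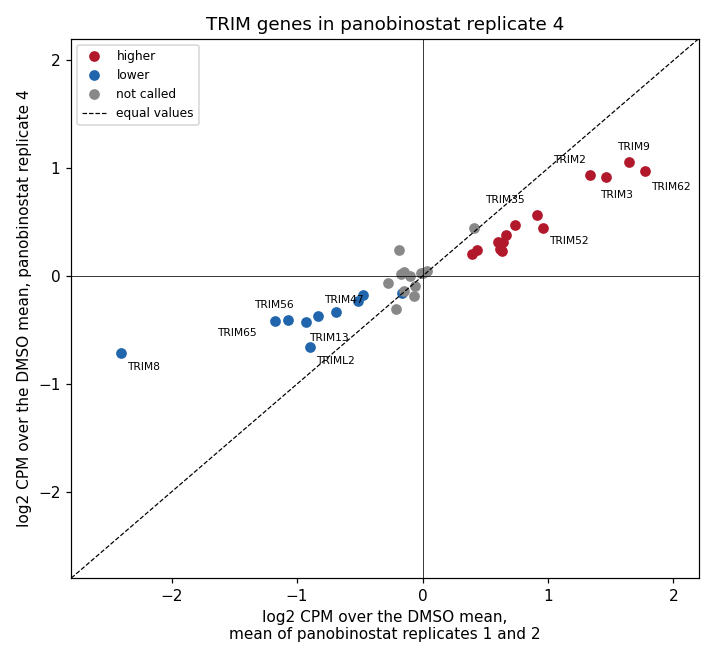
Log2 CPM over the DMSO mean (0.5 CPM added) of the 37 tested TRIM genes, mean of panobinostat replicates 1 and 2 on the x axis and replicate 4 on the y axis, coloured by call; the dashed line marks equal values. Called members lie on the zero side of the line, with TRIM8 the farthest from it.

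Several members are close neighbours in the genome. TRIM47 and TRIM65 lie 1 kb apart on chromosome 17 and both fell. TRIM41 and TRIM52 lie 13.3 kb apart on chromosome 5, and TRIM41 fell while TRIM52 rose; TRIM7, 18.1 kb from TRIM41, was too low to test, with 16 counts in panobinostat and 15 in DMSO. On chromosome 11, TRIM6, TRIM34, TRIM5 and TRIM22 lie within a cluster of restriction factors in which TRIM6 rose, TRIM5 and TRIM22 were not called and TRIM34 had 7 counts in panobinostat and 3 in DMSO. TRIM6 and TRIM34 share a readthrough transcript, and TRIM5 overlaps TRIM22 in GENCODE 29, so reads there are uncertain. TRIM11, 1.1 kb from TRIM17 on chromosome 1, was not called, and TRIM17 had 23 counts in panobinostat and 22 in DMSO, in proportion to library totals a ratio of 0.988 (95% counting interval 0.526 to 1.86). Among called members, only TRIM3, TRIM35, TRIM44, TRIM56 and TRIM65 overlap no other gene in GENCODE 29. The rest overlap other genes, which may add or remove reads. TRIM62, TRIM9, TRIM2, TRIM8, TRIM28, TRIM13, TRIM23, TRIM25 and TRIM37 are among them.

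The 17 members not tested had 0 to 45 counts in the 6 libraries together. Of these, 7 had 10 or more counts: TRIM17, TRIM7, TRIM46, TRIM69, TRIM73, TRIM74 and TRIM34. TRIM73 had 9 counts in panobinostat and 4 in DMSO, and TRIM74 had 2 and 8. These near-identical genes may share reads, which was not tested. The muscle ligases were among the lowest: TRIM63 had 3 and 3 counts, TRIM54 6 and 2, TRIM55 5 and 3, and TRIM72 4 and 0 in panobinostat and DMSO. TRIM29, an epithelial member without a RING, had 1 count in each group. TRIM43B and TRIML1, known from early embryos, had 1 count each, in panobinostat, and TRIM49 had 0. At this depth the counts of these genes were too low to test for a change. The interval given above for TRIM46 covers counting error only.

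TRIM26, an interferon-induced ligase in the major histocompatibility region of chromosome 6 (30184455 to 30213406), had 3 counts, in 1 DMSO library. Between 28.9 and 33.5 Mb of that chromosome, 57 of 169 protein-coding RefSeq genes had a row and their median total count was 9, against 920 over the 164 genes with a row before the window and 1142 over the 531 after it. TUBB, a tubulin gene that nearly all cells express, had 2 counts. The TRIM26 count is therefore not read as an expression level. Family genes without a row are in none of the counts above: of 44 symbols listed as PRY-SPRY, 27 had a row. TRIM27 and TRIM39 are not among the members.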

How the data were processed

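RNA of 3 panobinostat and 3 DMSO libraries was made into libraries with the Illumina Stranded mRNA Prep kit, per the labels' protocols. The authors deposited raw counts for each gene in 1 table, with no normalisation, under a name that points to featureCounts. The submitters' processing notes list FastQC and the build GRCh38.p14. No source used here names the aligner, the annotation or the strand setting. Counts and symbols sit beside separate identifier columns that do not always match, so symbols were joined by identifier. Current symbols of all 54 members equalled the deposited ones. The authors' comparison columns were not used.

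The quasi-likelihood test of edgeR 4.0.16 (R 4.3.3; TMM factors; robust; treatment the only term) was run after filterByExpr, which kept 13341 genes and left out 16710, with Benjamini-Hochberg adjustment. Unadjusted, 8519 genes had p under 0.05. SE came from the estimate and its F statistic. Counting intervals are exact and cover counting error only. The fit was tested on simulated counts. Libraries of 1 group differed by more than sampling noise, with chi-square values per gene of 1.25 to 1.76 among DMSO libraries, 1.57 for panobinostat replicates 1 and 2, and 19.6 and 13 for panobinostat replicate 4 against these. An exact test of 3 against 3 libraries cannot go below p = 0.1, so none was used. The labels give no batch.

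The 14 alternatives were 3 other scalings, no filter, DESeq2 1.42.0, limma 3.58.1 without and with library weights, a replicate block, and each library left out. Replicate numbers 3 and 4 each occur in 1 group, so the replicate block compares the treatments within replicates 1 and 2 only. The low ends of some ranges above come from that fit. By the naming rule, values per library are given for called members of at least 2-fold, the 6 most abundant by CPM, the PHD-bromodomain class and up to 6 members whose call was lost or sign turned without 1 library, and up to 4 called genes per direction are named from each partner list. Per-library values of other members, and MAGEC2, IRF9, RIGI, TAB2, IFNGR1 and TYK2, were added after their values were seen. The members, lists and this rule were chosen with earlier results of these data known. Some genes counted in the lists are not reported here by name.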

Additional observations from a re-analysis of the deposited data

How the results depend on the processing

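No called member changed direction under any of the 14 alternatives, and 17 of the 24 called members kept their call under all of them. Leaving out 1 library at a time gave 11 to 14 members called higher and 7 to 11 called lower. Beside these, 3105 to 5024 of all 13341 tested genes were called higher and 2660 to 4969 lower. The median log2 fold change of the tested members then ranged from −0.06 to 0.01. With no filter this median was −0.11, beside −0.05 over the same 13341 genes, and TRIM8 was not called. That fit gave 14 members higher and 9 lower, beside 4186 and 3960 of all genes with a count. The fits with other scaling factors gave 14 members higher and 9 or 10 lower, the DESeq2 Wald test 12 and 9, limma-voom 14 and 10, and library quality weights 14 and 11. Over all genes, the other scaling factors gave 3958 to 4273 higher and 3538 to 3918 lower, and the DESeq2 Wald test 3669 and 3484. The counts over all genes were 4071 and 4004 with limma-voom, and 5035 and 4928 with library quality weights. Between treatments the replicate 1 minus 2 differences had a correlation of 0.0671 across genes, and only numbers 1 and 2 are shared, so the numbers were not taken as pairs. With the replicate number as a block 15 members were higher and 11 lower, TRIM22 and TRIM21 added, beside 5031 and 4950 of all tested genes. That fit takes its change from replicates 1 and 2 only, so panobinostat replicate 4 has no part in it. With library size only, the median of all tested genes was 0.03. Members under 1.64 CPM on average were not tested, so depth limits what can be said of them.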
